A study of Homo sapiens with 12 samples.

Results

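The G2 and mitosis genes are a module of 40 human genes that cells switch on as they leave S phase and divide. They were taken as a fixed list of symbols and matched to the Ensembl identifiers of the deposited expression files. All 40 were matched, among 57879 rows in each file, and all 40 had at least 1 FPKM in at least 2 libraries, which placed them among the 13907 genes tested. RNA was sequenced from A549 cells, an established human lung adenocarcinoma line, made stable with lentivirus. The TIF1γ cells carried a TIF1γ expression construct (TRIM33 is the gene symbol) and were compared with vector cells infected with the matching empty construct. The sh-TAF15 cells carried a short hairpin RNA against TAF15 and were compared with sh-NC cells infected with the empty hairpin construct. All cells were thus infected and were labelled as the same line. The labels give 12 samples in 4 groups. Analysed here are TIF1γ replicates 2 and 3, vector replicates 1, 2 and 3, sh-TAF15 replicates 2 and 3 and sh-NC replicate 2. The other 4 samples are not analysed here. The promoter that drives the TIF1γ construct, the number of hairpins and whether a line came from 1 clone are not given in the sources used here.

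Entry into mitosis is driven by CDK1 bound to cyclin A or B, and the Aurora and Polo-like kinases then build the spindle and condense the chromosomes. The spindle checkpoint holds the anaphase-promoting complex, a ubiquitin ligase, inactive until every kinetochore is attached. Genes of this module are repressed in resting cells by the DREAM complex. Late in the cycle they are switched on by the MuvB core with B-MYB and FOXM1, through a promoter element called CHR. Many of their promoters also hold CCAAT boxes. In bulk RNA, fewer dividing cells and less RNA per dividing cell cannot be told apart.

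The promoters show what the members share outside the expression values. RefSeq promoters (GRCh38.p14, 250 bases before to 50 bases after the gene's start) were found for 34 of the 40 members. The 6 printed here come from several roles (KIF11 and CKAP2L share one) and from both ends of the TIF1γ comparison. All 6 hold the CHR letters, which 9 of the 34 member promoters lack, so no promoter without them is printed. Each runs from 150 bases before to 10 bases after the start, 5′ to 3′ on the gene's own strand. Capitals mark CHR letters (TTTGAA or TTCGAA) and CCAAT boxes, on either strand.

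CCNB2: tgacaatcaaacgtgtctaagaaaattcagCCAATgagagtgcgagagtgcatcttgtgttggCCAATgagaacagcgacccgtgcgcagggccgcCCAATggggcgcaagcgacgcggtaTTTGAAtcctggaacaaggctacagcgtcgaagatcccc

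PLK1: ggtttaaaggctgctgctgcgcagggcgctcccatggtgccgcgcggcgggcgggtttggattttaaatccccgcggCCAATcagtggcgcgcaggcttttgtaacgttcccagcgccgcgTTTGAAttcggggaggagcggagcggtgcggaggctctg

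KIF11: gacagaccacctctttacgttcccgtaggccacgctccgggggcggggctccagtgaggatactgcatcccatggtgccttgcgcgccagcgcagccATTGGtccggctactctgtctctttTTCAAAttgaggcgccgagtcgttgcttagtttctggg

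CKAP2L: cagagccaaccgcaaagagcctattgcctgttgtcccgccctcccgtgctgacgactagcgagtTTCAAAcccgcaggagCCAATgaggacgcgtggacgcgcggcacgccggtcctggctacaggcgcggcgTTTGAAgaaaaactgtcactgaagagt

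ANLN: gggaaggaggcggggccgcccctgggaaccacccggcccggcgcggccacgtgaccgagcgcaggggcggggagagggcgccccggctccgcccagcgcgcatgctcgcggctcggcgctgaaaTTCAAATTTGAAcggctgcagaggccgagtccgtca

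CDCA3: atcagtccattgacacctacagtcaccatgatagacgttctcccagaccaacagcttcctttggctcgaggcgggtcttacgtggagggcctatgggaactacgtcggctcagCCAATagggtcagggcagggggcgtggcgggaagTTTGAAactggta

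These stretches lie at chr15:59104996-59105155, plus strand, for CCNB2, at chr16:23678739-23678898, plus strand, for PLK1, at chr10:92592980-92593139, plus strand, for KIF11, at chr2:112764600-112764759, minus strand, for CKAP2L, at chr7:36389712-36389871, plus strand, for ANLN, and at chr12:6851277-6851436, minus strand, for CDCA3. The CHR letters of CCNB2 and PLK1 began 29 bases before the start, and those of KIF11 began 28 bases before it. ANLN held the CHR letters on both strands next to each other and held no CCAAT box in its window. CHR letters stood in 25 of the 34 member promoters (73.5%), against 10.7% of 9511 promoters of tested protein-coding genes and 16.6% of all 27305 promoters. A CCAAT box stood in 27 member promoters (79.4%), against 36.7% of the tested protein-coding genes. Both stood in 21 member promoters (61.8%), against 4.61% of the tested protein-coding genes and 5.41% of 37 promoters of S phase genes. The E2F letters TTTGGCGC or TTTCCCGC, on either strand, stood in 2 member promoters (5.88%), against 43.2% of the S phase promoters and 3.8% of the tested protein-coding genes. A match of letters is not a bound site, and the motifs were searched without allowing mismatches. CHR and CCAAT letters can share bases, and they did so in 2 member promoters.

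Before the member values, some features of the libraries bear on every comparison. Absolute depth is not given, and the steps between low values put the libraries at 0.789 to 1.04 times the depth of vector replicate 1. The libraries differed in how strongly they favoured GC-rich transcripts. Relative to the mean of all libraries, the 846 genes with under 40% transcript GC had medians of -0.79 and -0.33 on the log2 scale in TIF1γ replicates 2 and 3, against 0.17, 0.13 and -0.14 in vector replicates 1, 2 and 3. They had 0.33 and 0.15 in sh-TAF15 replicates 2 and 3, against 0.52 in sh-NC. Genes over 60% GC went the other way, at 0.65 and 0.35 in TIF1γ libraries and -0.51 in sh-NC. The members had transcript GC between 34.5% and 57.1%, with a median of 45.2%, against a median of 50.5% over tested protein-coding genes. The main member results are therefore given also with the trend on GC removed from each library. Whether that trend came with the treatment was not tested. TRIM33 had 8.03 and 6.14 FPKM in TIF1γ libraries, against 2.23, 2.10 and 1.27 FPKM in vector libraries (log2 fold change 1.45, SE 0.27, limma adjusted p = 0.129). The silenced gene TAF15 was not analysed here, so the hairpin label has no check in these values. Of the markers of other cell types, 0 of 3 matched endothelial, 3 of 7 fibroblast, 2 of 6 leukocyte and 2 of 7 alveolar and airway genes reached 1 FPKM in any library, and SFTPA1, SCGB1A1, DCN and CD3E were listed at 0 in all of them. The summed leukocyte list, carried by CD14 and CD68, was 62.0 to 87.2 FPKM in TIF1γ libraries and 36.9 to 57.6 FPKM in vector libraries, and its part in the member results was not tested. The 7 epithelial markers each reached 1 FPKM in some library, but not in every library. In sh-NC, EPCAM (0.44), KRT19 (0.24), CDH1 (0.86), CLDN4 (0.28) and CLDN7 (0.71) were below 1 FPKM. KRT19 had 26.9, 30.8 and 41.6 FPKM in vector libraries. The summed list was 2529 FPKM in sh-NC, 3406 to 4404 FPKM in sh-TAF15 and 9926 to 11510 FPKM in vector libraries. Its part in the member results was not tested. In TIF1γ libraries the sum was 82.2 to 82.5 FPKM. KRT8 and KRT18, abundant in vector libraries, were listed at 0 in both TIF1γ libraries. Such an exact 0 can be a failed estimate.

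With TIF1γ overexpression, most G2 and mitosis genes were lower than in vector cells, but no single member passed the test. Of 40 members, 33 had a log2 fold change below 0, against 48.4% of all genes, and the median was -0.64, against 0.02 over all genes tested. Of the 8430 other tested protein-coding genes in the members' range of transcript GC, 66.1% were below 0, with a median of -0.21. Adjusted p-values under 0.05 were given by limma to 0 of 40 members, where 0.00719% of all genes were called lower and 0.0144% higher. At an unadjusted p under 0.05, 20 members were lower and 0 higher, against 11.4% of all genes lower and 8.54% higher. Of the protein-coding genes in the members' GC range, 17.4% were lower and 1.95% higher. In the deposited, unscaled values both TIF1γ libraries lay below all 3 vector libraries for 18 members, against 16.8% of all genes. They lay above them for 0 members, against 20.8%. The remaining 22 members overlapped between the groups. Such counts use the deposited values throughout, while the fold changes use scaled ones. The log2 scale factors were 0.09 and -0.09 in TIF1γ libraries and -0.07, -0.04 and -0.13 in vector libraries, so members near the edge can change sides.

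**Figure D1:**
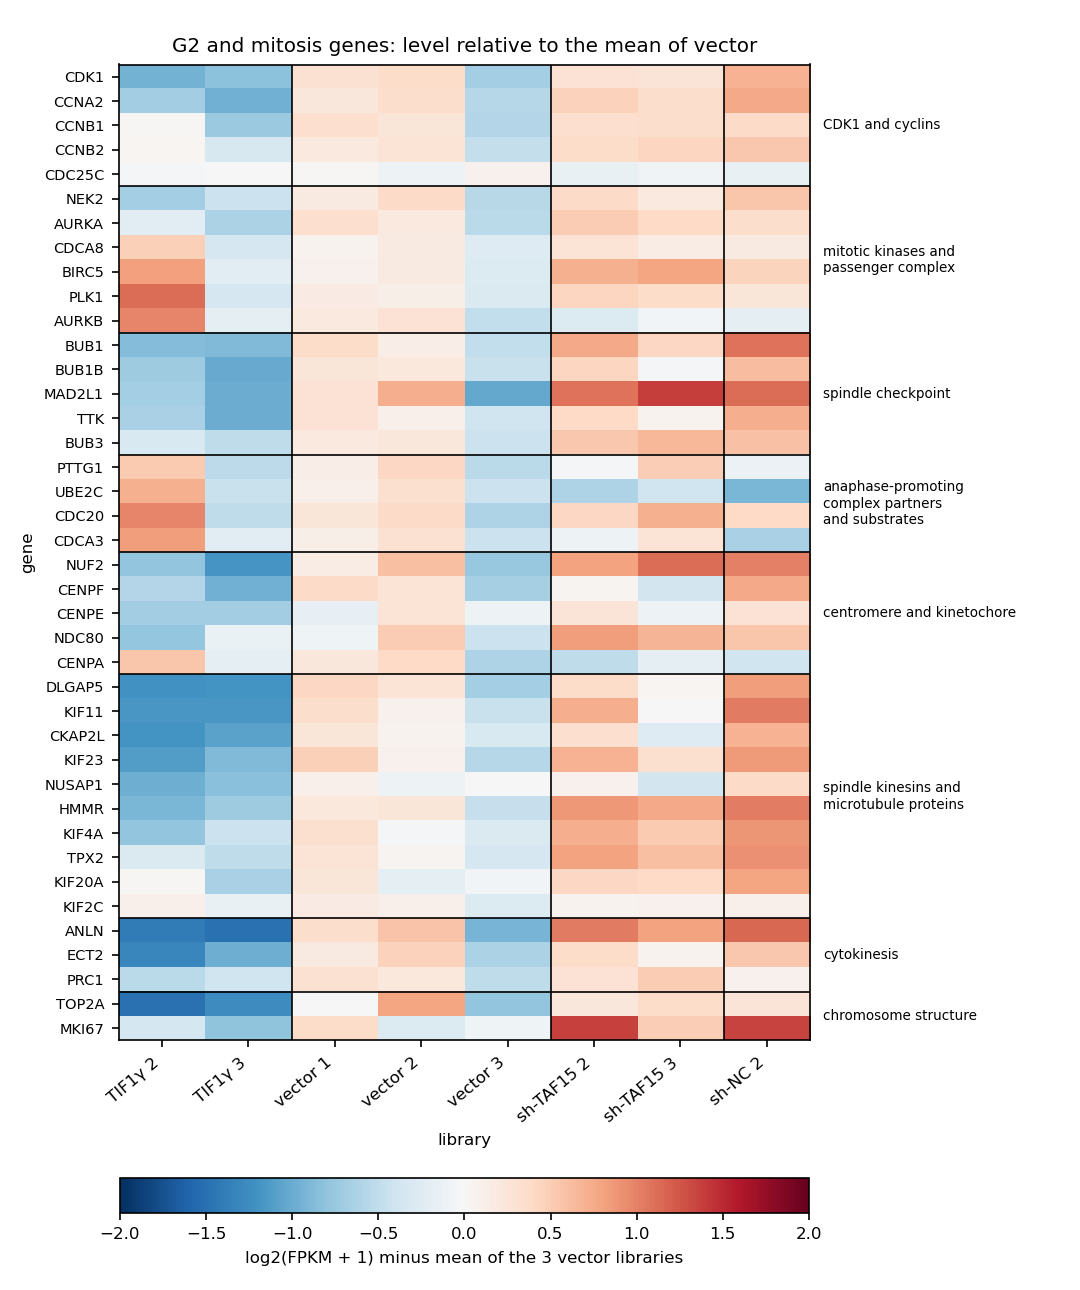
Level of each of the 40 genes (rows, grouped by role) in each of the 8 libraries (columns), as log2(FPKM + 1) of the deposited, unscaled values minus the mean of the 3 vector libraries. Blue is lower and red higher than the vector mean. Cytokinesis and most spindle genes are blue in both TIF1γ libraries, while 9 members are above all vector libraries in TIF1γ replicate 2 alone.

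Among CDK1 and its cyclins, all 5 members had a log2 fold change below 0 (median -0.44). CDK1, the kinase that starts mitosis, had 21.6 and 23.7 FPKM in TIF1γ libraries, against 52.6, 55.2 and 26.1 FPKM in vector libraries (log2 fold change -0.96, SE 0.29, limma adjusted p = 0.20). CCNA2, cyclin A2, had 13.8 and 11.4 FPKM in TIF1γ libraries, against 26.9, 29.4 and 15.1 FPKM in vector libraries (-0.90, SE 0.27). For both genes the TIF1γ values lay below every vector value, with vector replicate 3 the nearest. CDC25C, a phosphatase that activates CDK1, had 13.8 and 14.1 FPKM in TIF1γ libraries, against 14.2, 13.0 and 14.8 FPKM in vector libraries (-0.08, SE 0.23).

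The mitotic kinases and the chromosomal passenger complex did not share one direction, with 3 of 6 below 0 and a median of 0.10. NEK2, a kinase of centrosome separation, had 7.41 and 9.0 FPKM in TIF1γ libraries, against 14.2, 16.5 and 8.13 FPKM in vector libraries (-0.63, SE 0.29, limma adjusted p = 0.251). AURKA, the spindle-pole Aurora kinase, had 36.03 and 27.2 FPKM in TIF1γ libraries, against 53.8, 49.1 and 28.98 FPKM in vector libraries (-0.51, SE 0.26). AURKB, the Aurora kinase of the passenger complex, had 197 and 87.8 FPKM in TIF1γ libraries, against 114, 122 and 70.5 FPKM in vector libraries (0.32, SE 0.31). The TIF1γ libraries disagreed with each other for AURKB, where replicate 2 was above every vector library and replicate 3 lay within their range.

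That disagreement recurred across the module. In the deposited values TIF1γ replicate 2 lay above all vector libraries for 9 members, CDC20, PLK1, AURKB, CENPA, BIRC5, UBE2C, PTTG1, CDCA3 and CDCA8, and below all of them for 21. After scaling, PTTG1 would no longer lie above all of them. TIF1γ replicate 3 lay above all vector libraries for 0 members and below all of them for 27. The shares of all genes were not computed for these counts of a single replicate. Whether the counts are particular to the members is therefore not shown. The 9 members had transcript GC of 45.9% to 57.1%, and the 18 with both TIF1γ libraries below all vector libraries had 34.5% to 47.8%. PLK1, the Polo-like kinase, had 233 and 84.5 FPKM in TIF1γ replicates 2 and 3, against 121, 117 and 87.8 FPKM in vector libraries. Without TIF1γ replicate 2 the median of the 40 members was -0.68 with 0 called, and -0.53 with the GC trend also removed, again with 0 called.

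All 5 spindle checkpoint genes had a log2 fold change below 0, with a median of -0.92. BUB1, a checkpoint kinase at kinetochores, had 5.82 and 5.75 FPKM in TIF1γ libraries, against 15.0, 12.7 and 7.85 FPKM in vector libraries (-0.95, SE 0.28, limma adjusted p = 0.20). BUB1B, which encodes the checkpoint protein BUBR1, had 3.92 and 3.00 FPKM in TIF1γ libraries, against 8.51, 8.31 and 4.90 FPKM in vector libraries (-0.93, SE 0.29). Neither gene overlapped between the groups. BUB3, their binding partner, had 55.2 and 48.0 FPKM in TIF1γ libraries, against 78.7, 80.0 and 50.7 FPKM in vector libraries (-0.48, SE 0.24). The groups thus overlapped in the deposited values, though they would not after scaling.

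The 4 partners and substrates of the anaphase-promoting complex stood near 0, with 1 of 4 below 0 and a median of 0.10. PTTG1, securin, had 442 and 214 FPKM in TIF1γ libraries, against 338, 410 and 212 FPKM in vector libraries (-0.09, SE 0.32). UBE2C, the ubiquitin-conjugating enzyme of the complex, had 332 and 149 FPKM in TIF1γ libraries, against 218, 255 and 151 FPKM in vector libraries (0.05, SE 0.31). CDCA3, also called trigger of mitotic entry, had 157 and 75.5 FPKM in TIF1γ libraries, against 95.6, 110 and 65.3 FPKM in vector libraries (0.22, SE 0.29). In all 3 genes TIF1γ replicate 2 was the highest of these libraries and replicate 3 lay among or below the vector values. PTTG1 has near-identical copies in the genome (PTTG2 and PTTG3P), so its level is uncertain.

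Of the centromere and kinetochore genes, 4 of 5 were below 0 (median -0.74). NUF2, a subunit of the NDC80 complex that grips microtubules, had 4.22 and 2.98 FPKM in TIF1γ libraries, against 8.94, 12.6 and 4.33 FPKM in vector libraries (-1.05, SE 0.34, limma adjusted p = 0.20). CENPF, a large kinetochore protein, had 4.61 and 3.31 FPKM in TIF1γ libraries, against 10.0, 9.23 and 4.31 FPKM in vector libraries (-0.85, SE 0.32). In the deposited values NUF2 did not overlap between the groups and CENPF did, through vector replicate 3, though CENPF would not after scaling. CENPA, the centromeric histone H3 variant, had 65.3 and 38.6 FPKM in TIF1γ libraries, against 51.6, 58.0 and 28.1 FPKM in vector libraries (0.11, SE 0.30).

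All 10 spindle kinesins and microtubule proteins were below 0, with a median of -0.93. DLGAP5, which stabilises kinetochore fibres, had 3.08 and 3.13 FPKM in TIF1γ libraries, against 11.5, 10.4 and 4.89 FPKM in vector libraries (-1.28, SE 0.32, limma adjusted p = 0.20). KIF11, the motor that pushes spindle poles apart, had 2.78 FPKM in each TIF1γ library, against 9.91, 7.99 and 5.28 FPKM in vector libraries (-1.24, SE 0.31). For both genes the highest TIF1γ value was below the lowest vector value. KIF2C, a microtubule-depolymerising kinesin, had 28.7 and 23.9 FPKM in TIF1γ libraries, against 29.9, 28.7 and 21.9 FPKM in vector libraries (-0.10, SE 0.22).

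The 3 cytokinesis genes held the lowest member, ANLN, and had a median of -1.22. ANLN, the actin-binding scaffold of the cleavage furrow, averaged 4.14 ± 0.25 FPKM in TIF1γ libraries (SD, n = 2), against 14.4 ± 7.07 FPKM in vector libraries (SD, n = 3). Its single values were 4.32 and 3.96 FPKM in TIF1γ libraries, against 17.0, 19.8 and 6.39 FPKM in vector libraries (-1.53, SE 0.36, limma adjusted p = 0.20). ECT2, the exchange factor that activates RhoA at the furrow, had 5.84 and 7.58 FPKM in TIF1γ libraries, against 18.2, 22.3 and 9.90 FPKM in vector libraries (-1.22, SE 0.31). Neither gene overlapped between the groups, and in both the vector spread came mostly from replicate 3. PRC1, which bundles midzone microtubules, had 35.3 and 39.3 FPKM in TIF1γ libraries, against 64.3, 59.9 and 36.2 FPKM in vector libraries (-0.55, SE 0.26). Of the chromosome structure genes, TOP2A, the DNA topoisomerase of dividing cells, had 15.6 and 18.7 FPKM in TIF1γ libraries, against 45.8, 80.0 and 26.2 FPKM in vector libraries (-1.45, SE 0.36, limma adjusted p = 0.20). MKI67, which coats mitotic chromosomes and encodes the Ki-67 antigen, had 3.67 and 2.42 FPKM in TIF1γ libraries, against 6.70, 3.93 and 4.59 FPKM in vector libraries (-0.65, SE 0.32). Both were below every vector library in both TIF1γ libraries.

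The mean level over the 40 members was 4.17 and 4.01 in TIF1γ replicates 2 and 3, on the scaled log2(FPKM + 1) scale, against 4.89, 4.89 and 4.27 in vector replicates 1, 2 and 3. Vector replicate 3 was thus nearer to the TIF1γ libraries than to its own group. It was the lowest vector library for 35 of 40 members, against 43.1% of all genes. Without vector replicate 3, limma called 11 members lower and 0 higher (ANLN, ECT2, DLGAP5, TOP2A, KIF23, KIF11, NUF2, CCNA2, MAD2L1, BUB1 and CDK1), where 1.39% of all genes were called lower and 0.712% higher. With the GC trend also removed, 0 members were called without that library. The labels name no batch that sets it apart.

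**Figure D2:**
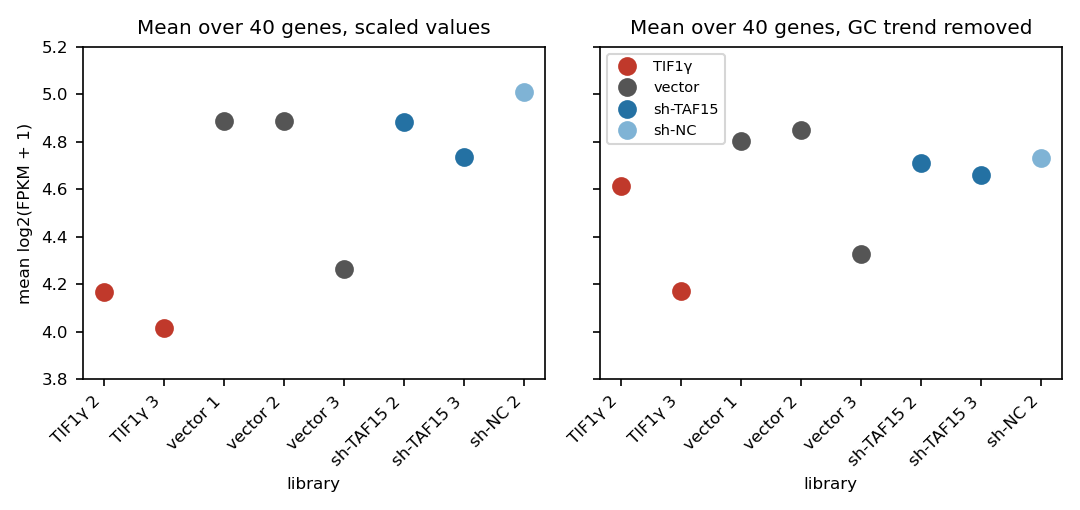
Mean log2(FPKM + 1) over the 40 genes in each library, scaled (left) and with the GC trend removed (right), with 1 point per library. The vertical axis does not start at 0. On the left both TIF1γ libraries lie below all vector libraries, at 4.17 and 4.01, and on the right TIF1γ replicate 2, at 4.61, lies above vector replicate 3, at 4.33.

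With the GC trend removed, the members' median was nearer to 0, at -0.28. Of the 40 members, 31 were below 0, against 46.5% of all genes, and 10 were lower at an unadjusted p under 0.05, against 3.11% of all genes. None was called by limma (lowest adjusted p = 0.729). ANLN then had a log2 fold change of -1.02, TOP2A -0.84, CKAP2L -0.73, DLGAP5 -0.66 and ECT2 -0.64. In all, 6 members had the opposite sign with the trend removed, namely CDC25C (0.18), PTTG1 (0.22), CCNB2 (0.13), NDC80 (0.03), CDC20 (-0.14) and PLK1 (-0.00061). The spindle genes had a median of -0.53 and the cytokinesis genes -0.64, while the kinases and the anaphase-promoting complex partners stood at -0.01 and 0.05. Set against protein-coding genes within 1 point of their own transcript GC, 32 of the 40 members were below the median. Over all 40 members, the median of member minus same-GC median was -0.28. Of 1035 such genes, 0.0966% had a lower fold change than ANLN, and of 450 genes 0.667% were below TOP2A. These are the 2 lowest members, picked after their values were seen. Other members were ordinary for their GC, with 41.2% of such genes below CCNB1, 43.8% below PLK1 and 75.1% below PTTG1.

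**Figure D3:**
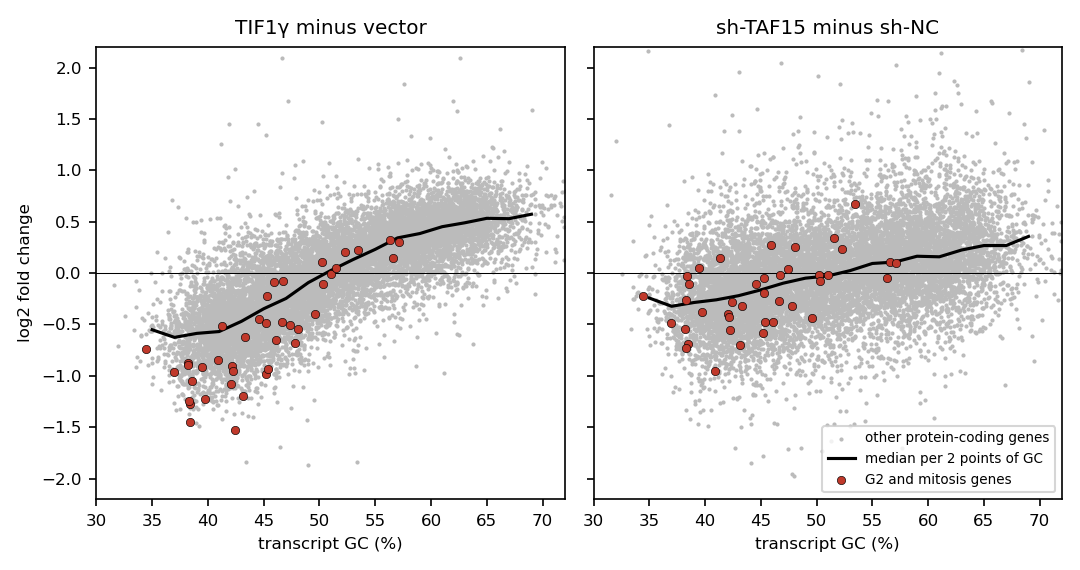
Log2 fold change against transcript GC (%) for TIF1γ minus vector (left) and sh-TAF15 minus sh-NC (right). Grey points are the other 11680 tested protein-coding genes, of which 13 on the left and 16 on the right fall outside the axes, the black line is their median per 2 points of GC, and red points are the 40 G2 and mitosis genes. On the left the black line climbs with GC and most red points lie under it.

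Across the 40 members the TIF1γ log2 fold change followed transcript GC (Spearman's rho 0.81, n = 40 genes, which share the same libraries). The 20 members of lower GC, 34.5% to 45.2%, had a median of -0.96, with 20 of 20 below 0. Both TIF1γ libraries lay below all vector libraries for 15 of them, against 16.8% of all genes of any GC. The 20 members of higher GC, 45.2% to 57.1%, had a median of -0.10, with 13 below 0 and 3 whose groups did not overlap. Other protein-coding genes followed GC too: the medians of genes within 1 point of each member's GC had a median of -0.55 for the lower 20 and -0.11 for the upper 20. With the trend removed these medians were -0.42 and -0.04. Members with CHR letters had a median of -0.92 (25 genes, median transcript GC 42.4%) and those without had -0.40 (9 genes, 45.9%), or -0.37 and -0.06 with the trend removed.

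**Figure D4:**
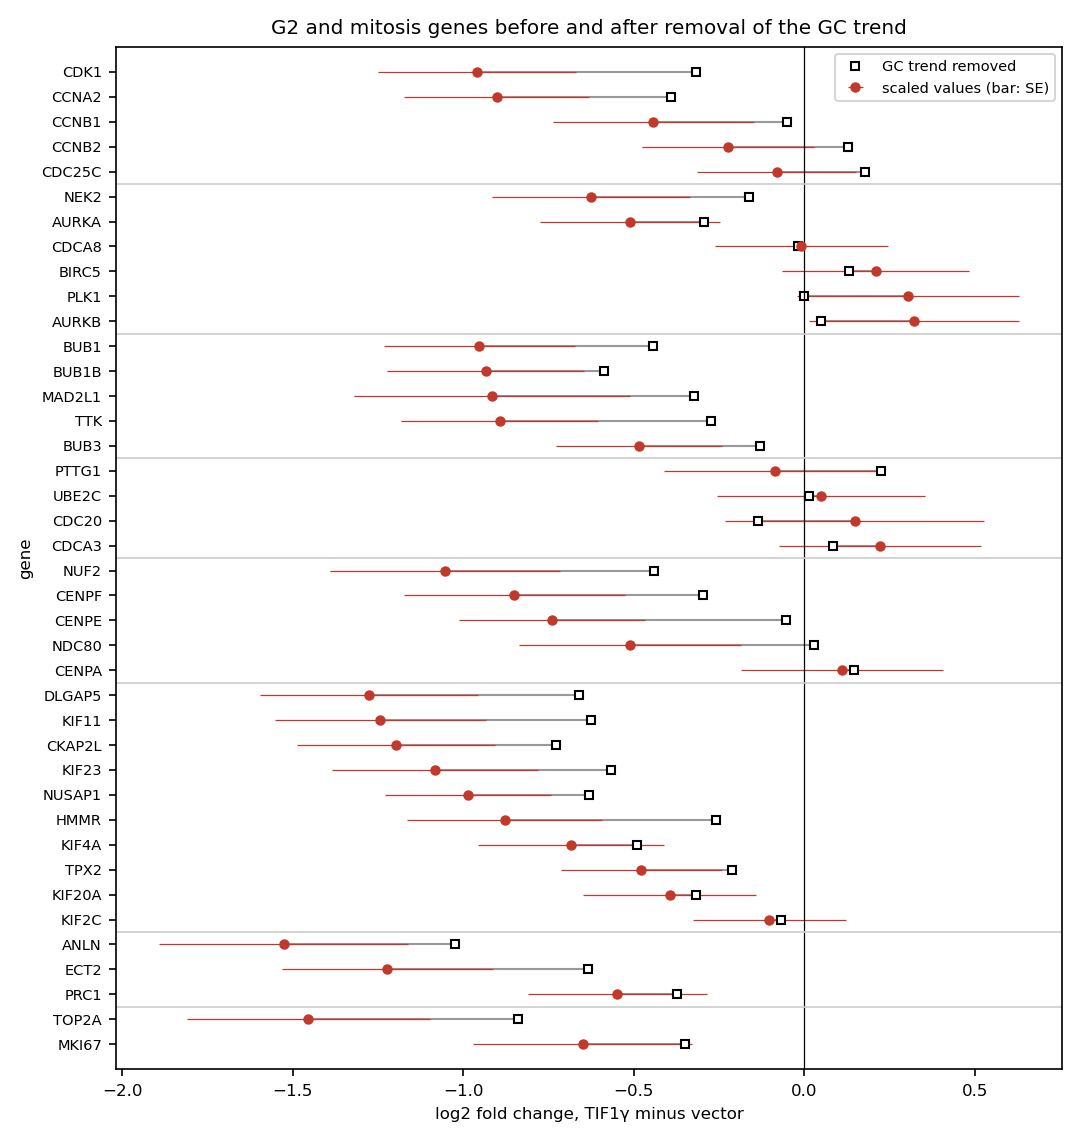
Log2 fold change of TIF1γ minus vector for each of the 40 genes, in role order, from the scaled values (red, bar: SE) and with the GC trend removed (open squares). The grey line joins the values of 1 gene. ANLN is lowest in both, at -1.53 and -1.02.

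The other genes of the pathway gave the setting for the members. These lists, like the members, were chosen with earlier results of these data known, and limma called 0 of their genes in the TIF1γ comparison. Condensin and cohesin genes, which shape and hold the chromatids, had 18 of 20 below 0, and 14 lower and 1 higher at an unadjusted p under 0.05, against 11.4% and 8.54% of all genes. Their median was -0.73. With the GC trend removed 7 were lower and 0 higher, against 3.11% of all genes lower, and the median was -0.36. In the lists that follow, the median in brackets is that with the trend removed. PDS5B, a cohesin regulator, had 0.251 and 0.861 FPKM in TIF1γ libraries, against 3.06, 3.43 and 1.86 FPKM in vector libraries (-1.33, SE 0.30, limma adjusted p = 0.184). The other spindle and cytokinesis genes had 17 of 26 below 0 and a median of -0.50 (-0.30). CEP55, needed for abscission, had 5.39 and 6.10 FPKM in TIF1γ libraries, against 17.2, 18.1 and 9.25 FPKM in vector libraries (-1.26, SE 0.29, limma adjusted p = 0.186). The other kinetochore genes had 23 of 29 below 0 and a median of -0.47 (-0.13), with ZWILCH, a checkpoint protein, at 2.92 and 3.18 FPKM in TIF1γ libraries, against 11.4, 9.05 and 6.23 FPKM in vector libraries (-1.33, SE 0.28). The S phase and DNA replication genes had 36 of 44 below 0 and a median of -0.35 (-0.27), so the members' median was the lower of the 2 before removal of the trend and about equal to it after. RRM1, a ribonucleotide reductase subunit, had 14.5 and 16.2 FPKM in TIF1γ libraries, against 37.8, 37.9 and 24.0 FPKM in vector libraries (-1.12, SE 0.25, limma adjusted p = 0.184).

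The regulators were nearer to 0. The MuvB and FOXM1 list had 9 of 15 below 0, 2 lower and 1 higher at an unadjusted p under 0.05, and a median of -0.27. With the trend removed 0 were lower and 0 higher, and the median was -0.11. LIN37, a MuvB subunit, had 15.5 and 17.6 FPKM in TIF1γ libraries, against 8.59, 8.58 and 10.3 FPKM in vector libraries (0.71, SE 0.25, limma adjusted p = 0.206). The CDK1 regulators had 9 of 13 below 0 and a median of -0.27 (-0.08), and the subunits of the anaphase-promoting complex had 11 of 18 below 0 and a median of -0.08 (0.05). CDC27, a subunit of that complex, had 5.18 and 6.19 FPKM in TIF1γ libraries, against 12.6, 9.99 and 13.3 FPKM in vector libraries (-1.02, SE 0.27, limma adjusted p = 0.20). Of the CDK inhibitors, 5 of 6 were tested, 0 were below 0 and the median was 0.35 (0.12). CDKN1A, which encodes p21, had 128 and 153 FPKM in TIF1γ libraries, against 81.0, 83.0 and 128 FPKM in vector libraries, where replicate 3 was again nearest to the TIF1γ libraries (0.47, SE 0.27, limma adjusted p = 0.328).

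**Figure D5:**
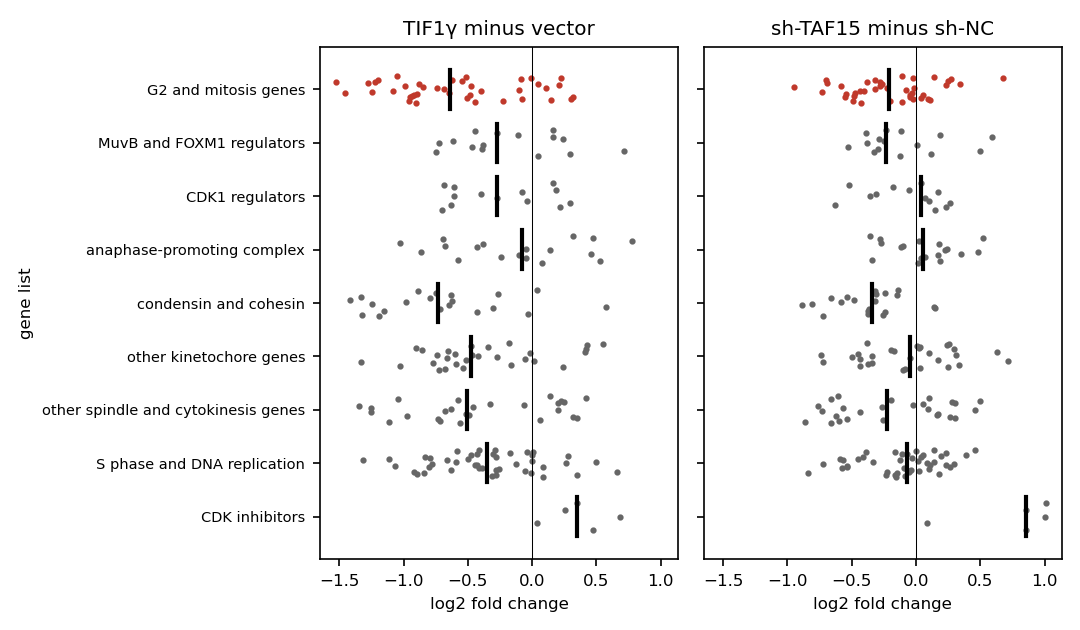
Log2 fold change of each tested gene (points) in the G2 and mitosis genes (red) and 8 other pathway lists (grey), for TIF1γ minus vector (left) and sh-TAF15 minus sh-NC (right). The black bar is the list's median, which on the left is -0.64 for the G2 and mitosis genes and 0.35 for the CDK inhibitors.

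With TAF15 silencing, no G2 or mitosis gene passed the test against the single sh-NC library, and the members' median was near that of all genes once the GC trend was removed. Of 40 members, 30 had a log2 fold change below 0, against 50.3% of all genes, and the median was -0.21. Of the other protein-coding genes in the members' GC range, 60.9% were below 0, with a median of -0.10. With the GC trend removed, 24 members were below 0, against 48.8% of all genes, and the median was -0.04. Limma called 0 members, where 0.00719% of all genes were called lower and 0.0503% higher. At an unadjusted p under 0.05, 1 member was lower and 0 higher, against 2.07% and 3.57% of all genes. Both sh-TAF15 libraries lay below sh-NC for 22 members, against 33.7% of all genes, and above it for 10, against 39.3%. The other 8 had 1 sh-TAF15 library on either side. The sh-NC library has no replicate, so the fit assumes that it varies like the other groups.

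CENPF was the member lower at an unadjusted p, at 7.80 and 5.56 FPKM in sh-TAF15 libraries, against 13.2 FPKM in sh-NC (-0.95, SE 0.43, limma adjusted p = 0.869). KIF11 had 13.0 and 7.50 FPKM in sh-TAF15 libraries, against 16.5 FPKM in sh-NC (-0.73, SE 0.41). CKAP2L, a spindle-associated protein, had 4.05 and 2.35 FPKM in sh-TAF15 libraries, against 5.50 FPKM in sh-NC (-0.70, SE 0.39). The next lowest were DLGAP5 (-0.69), with 11.2 and 8.71 FPKM in sh-TAF15 libraries against 15.9 FPKM in sh-NC, and NUSAP1 (-0.58), a spindle-assembly protein, with 25.5 and 18.3 FPKM against 31.5 FPKM. In all 5 genes sh-TAF15 replicate 3 was the lower of the 2 silenced libraries. At the other end, CDCA3 had 82.1 and 107 FPKM in sh-TAF15 libraries, against 55.7 FPKM in sh-NC (0.67, SE 0.40, limma adjusted p = 0.924). UBE2C had 132 and 154 FPKM in sh-TAF15 libraries, against 107 FPKM in sh-NC (0.34, SE 0.41). PTTG1 (0.27), PRC1 (0.25) and BIRC5 (0.24), which encodes survivin, followed, with 300 and 435 FPKM, 64.0 and 74.5 FPKM, and 146 and 153 FPKM in sh-TAF15 libraries, against 286, 55.2 and 121 FPKM in sh-NC. These 5 genes were higher in both sh-TAF15 libraries than in sh-NC.

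By role, all 10 spindle genes were below 0 in sh-TAF15 minus sh-NC (median -0.42, and -0.31 with the GC trend removed), and all 4 anaphase-promoting complex partners and substrates were above 0 (0.31, and 0.38 with the trend removed). The checkpoint genes had a median of -0.48 and the cyclin and CDK1 genes -0.20. Of the pathway lists, limma called 0 genes. Of the 5 CDK inhibitors tested, 4 were higher at an unadjusted p under 0.05, against 3.57% of all genes, and the median was 0.86. With the GC trend removed 2 were higher and the median was 0.78. CDKN1A, the p21 gene, stood at 226 and 256 FPKM in sh-TAF15 libraries, against 127 FPKM in sh-NC (0.86, SE 0.37, limma adjusted p = 0.848).

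Between the control lines, most members were higher in sh-NC than in vector cells, though none passed the test. In sh-NC minus vector, 32 of 40 members had a log2 fold change above 0, against 50.7% of all genes. Their median was 0.40, against 0.01 over all genes tested, and it was 0.11 with the GC trend removed. Of the 8430 other protein-coding genes in the members' GC range, 5284 were above 0, with a median of 0.22 before that removal. Limma called 0 members, where 7.21% of all genes were called lower and 3.78% higher. At an unadjusted p under 0.05, 5 members were higher and 2 lower, against 12.4% and 15.6% of all genes. In the deposited, unscaled values the sh-NC library lay above all vector libraries for 30 members, against 45.4% of all genes. It lay below them for 3, against 29.7%, and within their range for 7. Scaling lowers sh-NC (log2 factor 0.09) and raises vector replicates 1, 2 and 3 (-0.07, -0.04 and -0.13), so both shares above would be smaller after it. These controls carried different constructs, and construct and library cannot be told apart here.

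MKI67 was highest, at 14.2 FPKM in sh-NC, against 6.70, 3.93 and 4.59 FPKM in vector libraries (1.19, SE 0.41, limma adjusted p = 0.0763). ANLN had 29.99 FPKM in sh-NC, against 17.0, 19.8 and 6.39 FPKM in vector libraries (0.98, SE 0.46). MAD2L1, the checkpoint protein MAD2, had 57.3 FPKM in sh-NC, against 31.8, 43.6 and 12.3 FPKM in vector libraries (0.95, SE 0.51). BUB1 (0.92) and KIF11 (0.88) followed, at 25.5 and 16.5 FPKM in sh-NC, above every vector library in each case. UBE2C was lowest, at 107 FPKM in sh-NC, against 218, 255 and 151 FPKM in vector libraries (-1.09, SE 0.39, limma adjusted p = 0.0866). CDCA3 had 55.7 FPKM in sh-NC, against 95.6, 110 and 65.3 FPKM in vector libraries (-0.82, SE 0.37). CENPA (-0.56), AURKB (-0.35) and CDC25C (-0.31) were next, at 33.2, 87.7 and 12.5 FPKM in sh-NC. Of these, UBE2C, CDCA3 and CDC25C lay below all vector libraries.

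The TIF1γ and sh-NC comparisons share the vector libraries, and the sh-TAF15 and sh-NC comparisons share the sh-NC library, so their members' values are set side by side without a test of likeness. The difference of effects, TIF1γ minus vector less sh-TAF15 minus sh-NC, had a median of -0.40 over the members (-0.18 with the GC trend removed), against -0.01 over all genes. Over the other protein-coding genes in the members' GC range the median was -0.11 before removal of the trend. Limma called 0 members for that difference, where 0.0288% of all genes were called lower and 0.0144% higher, and at an unadjusted p under 0.05 1 member was lower and 0 higher, against 1.97% and 1.63% of all genes. That member was TOP2A, chosen here after its value was seen.

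Over all 8 libraries, sh-NC was the highest library for 21 members and TIF1γ replicate 2 for 9. Replicates 3 and 2 of sh-TAF15 were the highest for 4 and 3, and each vector replicate for 1. TIF1γ replicate 3 was the lowest for 15, TIF1γ replicate 2 for 14, vector replicate 3 for 8 and sh-NC for 3. The shares of all genes were not computed for these counts. In vector cells the members ranged from CENPE, a kinetochore motor, at 0.88, 1.55 and 0.98 FPKM, to PTTG1, at 338, 410 and 212 FPKM. Exons of some members overlap other genes in GENCODE 29, among them ANLN with KIAA0895, CDCA3 with GNB3, CCNA2 with EXOSC9 and PLK1 with ERN2, each on the opposite strand. BUB1B with BUB1B-PAK6, CENPA with SLC35F6, NUSAP1 with AC087721.2 and PRC1 with AC068831.7 overlap on the same strand. Whether the counting used strand is not given in the sources used here, so reads of the opposite-strand pairs cannot be told apart. Reads in shared exons of the same-strand pairs cannot be told apart by strand at all.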

How the data were processed

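RNA-seq values came from 8 A549 libraries in 4 groups. The authors deposited 1 value per Ensembl gene and library, treated here as FPKM, a unit that the file headers do not name. Per the submitters' processing notes, cutadapt 1.9.1, HISAT2 2.0.1, HTSeq 0.6.1 and GRCh37 were used, and how FPKM were made is not given in the sources used here. Names, transcript GC and exon overlaps came from GENCODE 29 (GRCh38), so no coordinates of the files are given. Of 57879 rows, 52323 were matched to a symbol.

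Libraries were scaled to their common mean by trimmed log2 ratios (trims of 30% on ratio and 5% on abundance). Fold changes are on the log2(FPKM + 1) scale, which understates changes of low genes. Printed FPKM, and counts of libraries above, below, overlapping, lowest or highest, use the deposited, unscaled values. Genes at 1 FPKM or more in at least 2 libraries were kept. In all, 19 genes listed at 0 beside 100 FPKM or more were set aside, 11 of which had passed that filter, which left 13907 genes. These were fitted with limma 3.58.1 in R 4.3.3, 4 groups in 1 fit, with 4 residual degrees of freedom, eBayes trend and robust, and Benjamini-Hochberg adjustment over all genes. A call is an adjusted p under 0.05. P-values set each difference against the spread between libraries of the same group, moderated over genes. The sh-NC group, with 1 library, adds nothing to that spread. The GC trend was removed per library with lowess (span 0.3). The script was tested on simulated data. Alternatives covered scaling, pseudocount, filters, GC and length, the replicate block, the variance model, the libraries in the fit and each library left out.

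The members and lists were chosen with earlier results of these data known. Per-library values are given, in each role, for the 2 lowest members and the highest in TIF1γ minus vector, for the 5 lowest and 5 highest in the other 2 comparisons, and for up to 3 genes of each pathway list by adjusted p. A few further members are named as counted.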

Additional observations from a re-analysis of the deposited data

How the results depend on the processing

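Over 23 alternatives, 27 members were followed in every comparison, which gave 2156 log2 fold changes. Of these, 1997 kept their direction and their side of the threshold, 14 became called, 0 lost a call and 145 changed sign. For TIF1γ minus vector the median of the members stayed below 0 in every alternative, at -0.28 with the GC trend or the GC and length trends removed, -0.19 with the replicate block and the GC trend removed, and -0.36 without vector replicate 3 and the GC trend removed. With each library left out it ran from -0.78 to -0.53, and members called ran from 0 to 11, the 11 being without vector replicate 3. With the replicate number as a block, 1 member was called, TOP2A (-1.46, limma adjusted p = 0.0297), where 0.151% of all genes were called lower and 0.165% higher, and the fit kept 2 residual degrees of freedom. Same-numbered libraries deviated together with Pearson correlations of 0.172 and 0.121, over only 2 pairs, and the labels name no shared batch, so the libraries share only a number. For sh-TAF15 minus sh-NC the median was 0.10, of opposite sign, with the block and the GC trend removed, and ran from -0.27 to -0.14 with a library left out, with 0 members called. For sh-NC minus vector the median was 0.11 with the GC trend, with the GC and length trends, or with the GC trend and without TIF1γ replicate 2. It was 0.018 with the block and the GC trend removed, -0.031, of opposite sign, without vector replicate 3 and the GC trend, and 0.21 to 0.54 with a library left out. There, 1 member was called without scaling (MKI67), 1 without vector replicate 2 (MAD2L1) and 1 without TIF1γ replicate 2 (UBE2C, lower), so members called ran from 0 to 1. In the main fit of sh-NC minus vector, 7.21% of all genes were called lower and 3.78% higher. The shares under these 3 alternatives are not given, so the single calls are not read as a result about the members. The difference of effects had medians of -0.61 to -0.22 with a library left out. The mean member level became 4.61 in TIF1γ replicate 2, both with the GC trend removed and with the GC and length trends removed. In sh-NC it became 4.73 with the GC trend removed and 4.74 with both trends removed. In TIF1γ minus vector, the sign changes among the members followed were as below, and outside them CCNB2, NDC80, CDC20 and PLK1 also changed sign with the GC trend removed (0.13, 0.03, -0.14 and -0.00061). CDC25C was 0.18 with the GC trend removed, 0.16 with GC and length, 0.16 with the block and GC, 0.26 and 0.13 with GC and without vector replicate 3 or TIF1γ replicate 2, and -0.18 to 0.023 with a library left out. PTTG1 was 0.22, 0.21, 0.25 and, without vector replicate 3 and GC, 0.0073, and -0.51 to 0.35 with a library left out. KIF2C was 0.0052 with the block and GC. With GC and without vector replicate 3, AURKB was -0.24, CDCA3 -0.15, CENPA -0.16 and UBE2C -0.20, and with GC and without TIF1γ replicate 2 they were -0.35, -0.31, -0.18 and -0.47. With 1 library left out, AURKB ran from -0.16 to 0.81, CDCA3 from -0.21 to 0.66, CENPA from -0.18 to 0.39 and UBE2C from -0.43 to 0.53. The cause of these shifts was not tested. Without sh-NC no comparison that uses it could be fitted. The 2 alternatives that leave out a library together with the GC trend were chosen after seeing the data.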
